A study of Mus musculus with 11 samples.

Results

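The genes described here are the matrix metalloproteinases Mmp2, Mmp3, Mmp10, Mmp11, Mmp13, Mmp14 and Mmp15 and the tissue inhibitors of metalloproteinases Timp1, Timp2 and Timp3. They were taken by gene symbol, and they are 10 of the 21846 genes counted and 10 of the 26 Mmp and Timp genes among them. RNA was sequenced from 11 cultures of mouse mammary carcinoma cell lines that arose in virgin female FVBhuHER2 mice, which carry a human HER2 transgene. MamBo89 came from tumor A and kept HER2 (HER2 stable), and MamBo43 came from tumor B and can lose it (HER2 labile). MamBo38 (HER2 loss) was derived from a tumor that MamBo43 cells formed in vivo, so it also goes back to tumor B. The 5 HER2-positive libraries were untreated MamBo43, untreated MamBo89, an untreated MamBo89 library labelled AG3, and MamBo89 under each of both trastuzumab schedules. AG3 was taken as the clone that the study's methods list. Trastuzumab, an antibody against HER2, was given at 30 µg/ml for 60 days, or for 30 days and then withheld for 30 (the interrupted schedule). The 6 HER2-negative libraries were 2 of untreated MamBo38, MamBo38 under each schedule, and MamBo43 under each schedule, here MamBo43 TRT. The study describes that MamBo43 TRT cultures kept a small share of HER2-positive cells. Each of these lines stands for a single tumor lineage, and within tumor B a single library was HER2-positive.

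Matrix metalloproteinases are zinc enzymes that cut the proteins of the extracellular matrix. Most are made as inactive proenzymes and secreted, whereas membrane-type members such as Mmp14 and Mmp15 stay anchored at the cell surface. The TIMP proteins bind the active site of the enzymes and block it. Timp2 also has a role in activation, since a Timp2 molecule held by Mmp14 captures the Mmp2 proenzyme for cleavage by a neighbouring Mmp14. In breast tumors, several of these genes are known as products of stromal and mesenchymal cells, and the levels of protease and inhibitor are often read together.

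Levels are given as CPM, read counts divided by TMM-adjusted library sizes. Fold changes are log2 values from the quasi-likelihood test of edgeR, with their standard error (SE). Genes were called where p, adjusted by Benjamini and Hochberg, was below 0.1 and the log2 fold change was 1 or more in either direction. Total counts per library ranged from 17040454 to 27127662, and 3 counts, taken as the detection floor, correspond to 0.113 to 0.179 CPM. As a check of the labels, mouse Erbb2 had 17.7 to 31.7 CPM in HER2-negative and 118 to 167 CPM in HER2-positive libraries. The HER2 transgene itself was not analysed here. Markers of other cells moved with the groups. The 9 epithelial markers summed to 3030 to 4260 CPM in HER2-positive libraries, to at most 2780 CPM in MamBo43 TRT and to at most 2.96 CPM in MamBo38. Of these, 8 were tested by HER2 status, 0 were called higher in HER2-negative libraries and 3 lower. The 9 fibroblast and pericyte markers summed to 36 to 337 CPM in HER2-positive and 3850 to 7900 CPM in HER2-negative libraries, and 6 of the 6 tested were called higher. Over all tested genes, 15.8% were called higher and 17.0% lower. Thy1 of the fibroblast list had 2.16 CPM in untreated MamBo43 and at most 0.0558 CPM in MamBo38. Krt19 and Lum of these lists had at most 3 counts in any library. The 8 macrophage and leukocyte markers summed to 8.22 to 62.3 CPM in HER2-negative and 77.1 to 433 CPM in HER2-positive libraries, with 1 called higher and 1 lower. Most of these sums came from Cd14, at 210 to 424 CPM in MamBo89, and from Cd68, at 26.8 to 49.9 CPM in MamBo38, whereas Ptprc, Adgre1, Csf1r and Itgam had at most 3 counts in any library. The 7 endothelial markers summed to at most 1.83 CPM. The part of these markers in the results below was not tested. In RNA from a whole culture, a change in the share of cells that express a gene and a change in RNA per cell cannot be told apart.

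Between HER2-negative and HER2-positive libraries, genes of both kinds, proteases and inhibitors, were called. Of the 10 genes, 9 had enough counts for the test, 4 were called higher in HER2-negative libraries and 1 was called lower. The higher ones were Mmp2, Mmp11, Timp1 and Timp2, and the lower one was Mmp15. Among the 12364 genes tested, 15.8% were called higher and 17.0% lower. In 3 of the 9, every HER2-negative library lay above every HER2-positive one, and in 1 below, against 17.5% and 17.4% of all tested genes. With counts summed per line and HER2 status, 2 sums against 2, none of the 5 was called (edgeR adjusted p = 0.159 to 0.22). Only 4 of 13399 genes were called in that fit, so it could decide little. Its log2 fold changes were 4.92 for Mmp11, 4.055 for Mmp2, 3.79 for Timp1, 2.30 for Timp2 and -5.37 for Mmp15. Without untreated MamBo43, 8 genes were called higher and 1 lower, and 4607 of 12619 genes were called either way. That fit, also given for single genes below, sets tumor B lines against MamBo89 of tumor A. HER2 status and tumor of origin cannot be told apart in it. The median log2 fold change of the 9 genes was 2.71, against -0.04 over all tested genes. A gene near 0 in one group entered the test through the group in which it was high, so these counts are descriptions. Mmp10 was not tested in this comparison. The 10 genes fell into different patterns across the lines, which the plot of levels by library shows and the next paragraphs describe.

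**Figure D1:**
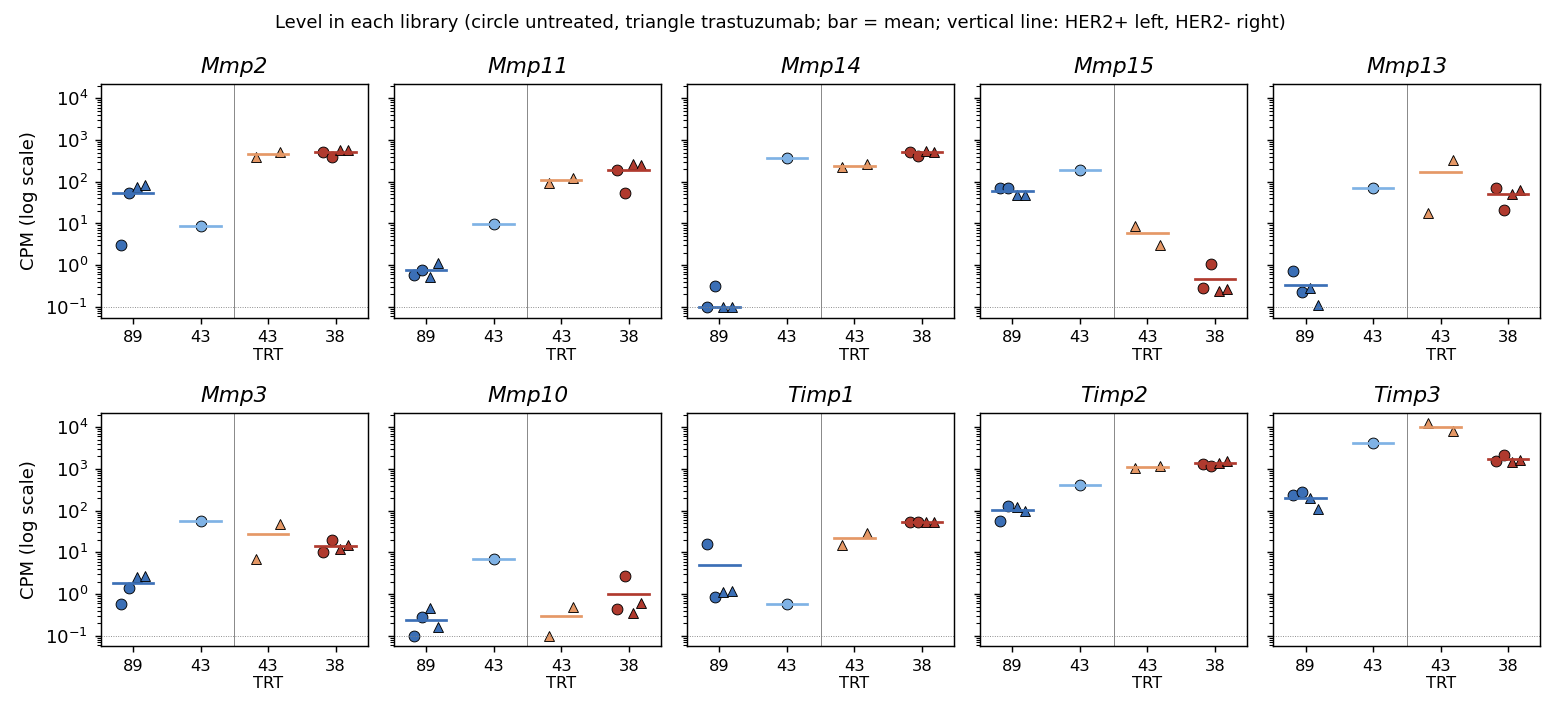
Level of each gene in every library, in CPM on a log scale, with HER2-positive libraries left and HER2-negative libraries right of the vertical line; circles are untreated and triangles trastuzumab-treated cultures, bars are means, and values under 0.1 CPM are drawn at 0.1. Mmp2, Mmp11 and Timp2 lay higher in all 6 HER2-negative libraries, Mmp15 lay lower in all 6, and Mmp14 was high in every MamBo43 and MamBo38 library but near 0 in MamBo89.

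Mmp2 encodes gelatinase A, which degrades denatured collagen and basement membrane collagen. It lies on chromosome 8 of GRCm38, from 92827291 to 92853420. MamBo38 had 504 and 383 CPM untreated, 562 CPM after the interrupted trastuzumab schedule and 567 CPM after 60 days of the antibody. MamBo43 TRT had 383 CPM after the interrupted schedule and 527 CPM after 60 days. Untreated MamBo43 had 8.57 CPM, and MamBo89 had 3.06 CPM in the AG3 library, 53.3 CPM in the other untreated library, and 72.9 and 84.9 CPM under trastuzumab. All HER2-negative libraries thus stood above all HER2-positive ones, and within the HER2-positive group untreated MamBo43 and AG3 were the lowest. The log2 fold change was 3.45 (SE 0.73, edgeR adjusted p = 0.00231). Within MamBo43, the pair of TRT libraries stood 5.74 above the untreated library on the log2 scale (SE 1.46, edgeR adjusted p = 0.0207).

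Mmp11, or stromelysin-3, is a secreted enzyme that is activated inside the cell by furin-type convertases, and it is best known from the stroma of breast carcinomas (chromosome 10, 75923222 to 75936496). In MamBo38 it had 192, 52.5, 266 and 251 CPM, the lowest being an untreated library. MamBo43 TRT had 94.2 and 121 CPM, and untreated MamBo43 had 9.51 CPM. The MamBo89 libraries had 0.582, 0.784, 0.526 and 1.10 CPM. Mmp11 thus rose stepwise from MamBo89 through untreated MamBo43 to the HER2-negative lines, with no overlap between these 3 levels. The log2 fold change between HER2-negative and HER2-positive libraries was 5.99 (SE 0.95, edgeR adjusted p = 0.00037). It was also called in untreated MamBo43 against untreated MamBo89 (log2 fold change 3.78, edgeR adjusted p = 0.0117) and in MamBo43 TRT against untreated MamBo43 (3.50, edgeR adjusted p = 0.0101). Its exons share 5.58% of their bases with Chchd10 on the opposite strand, and the library kit keeps no strand.

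The membrane-type enzymes did not move together. Mmp14, also known as MT1-MMP, cleaves fibrillar collagen at the cell surface and activates the Mmp2 proenzyme (chromosome 14, 54431612 to 54445364). It had 518, 422, 546 and 522 CPM in MamBo38, 221 and 269 CPM in MamBo43 TRT, and 362 CPM in untreated MamBo43. In MamBo89, 3 of the 4 libraries had 0 counts, and the untreated library other than AG3 had 7 counts, or 0.323 CPM. Mmp14 thus separated the lines by tumor of origin, and untreated, HER2-positive MamBo43 lay between the HER2-negative lines. Between the HER2 groups the log2 fold change was 2.52 (SE 1.90, edgeR adjusted p = 0.286), and without the untreated MamBo43 library it gave 12.10 (edgeR adjusted p = 1.83e-06). Untreated MamBo43 against untreated MamBo89 gave 11.04 (SE 0.64, edgeR adjusted p = 0.000127). Within MamBo43, trastuzumab-treated and untreated cells differed by -0.56 (SE 0.43, edgeR adjusted p = 0.367). MamBo43 TRT stood below MamBo38, at -1.03 on the log2 scale (edgeR adjusted p = 0.00173). The value was -0.98 without the interrupted MamBo38 culture and -0.89 without the interrupted MamBo43 culture, below the size needed for a call.

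Mmp15, or MT2-MMP, is the membrane-type enzyme known mainly from epithelial cells (chromosome 8, 95352268 to 95375080). Untreated MamBo43 had the highest level, 188 CPM. The MamBo89 libraries had 71.4 and 70.3 CPM untreated and 47.6 and 48.1 CPM under trastuzumab. MamBo43 TRT had 8.74 CPM after the interrupted schedule and 3.10 CPM after 60 days, and MamBo38 had 0.289, 1.06, 0.239 and 0.263 CPM. All HER2-negative libraries lay below all HER2-positive ones. Within MamBo43, the summed epithelial markers were also highest in untreated cells, at 4060 CPM, and lowest after 60 days, while Krt7 of that list was highest after the interrupted schedule, at 644 CPM against 261 CPM in untreated cells. The log2 fold change by HER2 status was -5.22 (SE 0.98, edgeR adjusted p = 0.00112), and within MamBo43 it was -5.00 (SE 0.56, edgeR adjusted p = 0.000835). MamBo43 TRT stood above MamBo38 by 3.69 (edgeR adjusted p = 0.00441). On the scale of CPM per kb of exon, untreated MamBo43 expressed both membrane-type genes, at 60.7 for Mmp14 and 34.9 for Mmp15. Of the pair, MamBo89 had Mmp15 at 8.83 to 13.2 and Mmp14 at no more than 0.0542, and MamBo38 had Mmp14 at 70.8 to 91.6 and Mmp15 at no more than 0.197.

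Mmp13, Mmp3 and Mmp10 are neighbours in a run of 9 Mmp genes on chromosome 9, which spans 427 kb from 7272514 to 7699585. Mmp13 is a collagenase, and Mmp3 and Mmp10 are stromelysins with a broad range of substrates. The AP-1 factors, dimers of Fos and Jun proteins, are known regulators of genes of this cluster. Promoter windows from RefSeq (GRCm38.p6) were found for 9 of the 10 genes, all but Mmp2, and the 250 bases before each start were searched. The AP-1 letters TGACTCA or TGAGTCA were present in 3 of the 9 windows, those of Mmp13, Mmp3 and Mmp10, and in 4.46% of all 32851 windows. The TATA box letters TATAAA, searched on the gene's strand, were in the same 3 windows and in 7.59% of all. The GC box letters CCGCCC or GGGCGG were in the windows of the other 6 genes and in 32.7% of all. The ETS letters AGGAAG or CTTCCT were in 5 of the 9 windows and in 29.5% of all, and the RUNX letters ACCACA or TGTGGT were in 2 of the 9 and in 14% of all. All but the TATA box were searched on both strands. A match describes the sequence and is not evidence of binding. The last 100 bases before the start are shown for the 3 cluster genes and, for comparison, for Mmp14, with AP-1, TATA and GC box letters in capitals.
Mmp13 (chr9:7272414-7272513, plus strand): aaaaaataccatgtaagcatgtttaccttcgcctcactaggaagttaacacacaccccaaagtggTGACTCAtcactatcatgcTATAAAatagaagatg
Mmp3 (chr9:7445722-7445821, plus strand): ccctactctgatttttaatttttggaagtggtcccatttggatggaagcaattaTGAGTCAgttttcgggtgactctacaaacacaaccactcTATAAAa
Mmp10 (chr9:7502242-7502341, plus strand): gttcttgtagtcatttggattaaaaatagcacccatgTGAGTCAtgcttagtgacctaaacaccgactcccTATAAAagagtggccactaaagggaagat
Mmp14 (chr14:54431498-54431597, plus strand): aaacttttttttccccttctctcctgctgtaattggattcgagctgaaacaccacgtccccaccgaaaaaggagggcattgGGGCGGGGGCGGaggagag
In these sequences the AP-1 letters begin 35 bases before the start in Mmp13, 46 in Mmp3 and 63 in Mmp10. In Mmp14, the capitals are 2 adjoining GC boxes that begin 19 and 13 bases before the start.

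All 3 genes differed widely between cultures of MamBo43. Mmp13 (chromosome 9, 7272514 to 7283331) had 69.6, 20.7, 51.4 and 63.6 CPM in MamBo38 and 69.1 CPM in untreated MamBo43. MamBo43 TRT had 17.4 CPM after the interrupted schedule and 333 CPM after 60 days. In MamBo89 it was between 0.110 and 0.728 CPM. Mmp13 was thus present in every MamBo43 and MamBo38 library and close to the detection floor in MamBo89. Untreated MamBo43 stood above untreated MamBo89 by 7.16 on the log2 scale (SE 1.55, edgeR adjusted p = 0.02), while the comparison by HER2 status gave 2.71 (SE 1.57, edgeR adjusted p = 0.168) and, without untreated MamBo43, 8.05 (edgeR adjusted p = 0.000251).

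Mmp3 (chromosome 9, 7445822 to 7455975) was highest in untreated MamBo43, at 56.5 CPM. MamBo43 TRT had 6.92 CPM after the interrupted schedule and 47.2 CPM after 60 days. MamBo38 had 10.1, 20.0, 11.8 and 15.1 CPM, and MamBo89 had 0.582, 1.43, 2.51 and 2.76 CPM. As for Mmp13, all MamBo89 libraries lay below all libraries of tumor B. By HER2 status the log2 fold change was 0.53 (SE 1.05, edgeR adjusted p = 0.694), or 3.35 without untreated MamBo43 (edgeR adjusted p = 0.00151), and untreated MamBo43 stood 5.79 above untreated MamBo89 (edgeR adjusted p = 0.0074). Without the 60-day MamBo43 TRT library, the value within MamBo43 was -3.02 (edgeR adjusted p = 0.026), against -1.05 with it (edgeR adjusted p = 0.39).

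Mmp10 (chromosome 9, 7502352 to 7510240) did not exceed 6.92 CPM, its level in untreated MamBo43, and it had 2.68 CPM in 1 of the untreated MamBo38 libraries. The other 9 libraries had at most 0.6 CPM, so the 2 libraries with more stood apart from the rest. Untreated MamBo43 was above untreated MamBo89 (log2 fold change 5.34, edgeR adjusted p = 0.0277), and MamBo43 TRT was below untreated MamBo43 (-4.46, edgeR adjusted p = 0.0237). Of the 75-base windows of Mmp3 and Mmp10, 3.76% and 3.94% occur in both transcripts.

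The schedules of MamBo43 TRT, with 1 library each and thus no replicate check, differed more in the cluster than in most genes. The ratio of the 60-day to the interrupted culture was 19.1-fold for Mmp13, 6.82-fold for Mmp3 and 5.07-fold for Mmp10, the last from 13 and 2 counts. For the other 7 genes the ratio was between 0.355 and 2. A ratio of 5-fold or more was seen in 0.671% of the 12364 tested genes. Outside the 10 genes, Mmp9 stood at 6.32-fold and Mmp12, a member of the same cluster, at 23.4-fold, from 30 and 1 counts. The other 6 genes of the cluster did not exceed 1.15 CPM in any library.

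Timp1 and Timp2, both secreted inhibitors, were called higher in HER2-negative libraries, and Timp3 was not. Timp1 (chromosome X, 20870166 to 20874735) had 54.4, 53.8, 54.7 and 53.4 CPM in MamBo38. MamBo43 TRT had 14.6 and 29.2 CPM, and untreated MamBo43 had 0.590 CPM. In MamBo89, the AG3 library had 16.3 CPM and the other 3 had 0.830 to 1.16 CPM. AG3 thus lay within the MamBo43 TRT range, and the groups overlapped. The log2 fold change by HER2 status was 3.44 (SE 0.93, edgeR adjusted p = 0.00931), and with untreated libraries only it was 3.23 (edgeR adjusted p = 0.157). Within MamBo43 it was 5.21 (SE 1.54, edgeR adjusted p = 0.0357). MamBo43 TRT stood below MamBo38 by -1.30 (edgeR adjusted p = 0.0062). This call was lost in a fit of all 11 libraries, where the value was again -1.30 (edgeR adjusted p = 0.261). It was also lost without the interrupted MamBo43 culture, where the value was -0.87.

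Timp2 (chromosome 11, 118301069 to 118355740) had 1334, 1196, 1369 and 1580 CPM in MamBo38 and 1073 and 1170 CPM in MamBo43 TRT. Untreated MamBo43 had 415 CPM, and the MamBo89 libraries had 56.2, 126, 123 and 100.2 CPM. The levels rose in the order MamBo89, untreated MamBo43, MamBo43 TRT and MamBo38, with no overlap between these groups. The last step, from MamBo43 TRT to MamBo38, was not called (log2 fold change -0.29 in MamBo43 TRT, edgeR adjusted p = 0.111). By HER2 status the log2 fold change was 2.97 (SE 0.46, edgeR adjusted p = 0.000313). Both steps to and from untreated MamBo43 were called, with 2.18 over untreated MamBo89 (edgeR adjusted p = 0.00927) and 1.44 from untreated MamBo43 to MamBo43 TRT (edgeR adjusted p = 0.0379). The latter value was 1.375 without the 60-day culture, where its call was lost.

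Timp3, which binds to the matrix and also inhibits membrane sheddases of the ADAM family, was the most abundant of the 10 genes in MamBo43 (chromosome 10, 86300372 to 86349506). It had 4258 CPM in untreated MamBo43, 12470 CPM after the interrupted schedule and 8195 CPM after 60 days. MamBo38 had 1523, 2211, 1500 and 1627 CPM, and MamBo89 had 234, 274, 201 and 112 CPM. Timp3 was thus highest in MamBo43 with or without HER2, and MamBo38 lay between MamBo43 and MamBo89. MamBo43 TRT stood above MamBo38 by 2.59 (SE 0.21, edgeR adjusted p = 0.000273), and untreated MamBo43 stood above untreated MamBo89 by 4.06 (SE 0.41, edgeR adjusted p = 0.000713). The comparison by HER2 status gave 2.18 (SE 1.08, edgeR adjusted p = 0.112), and without untreated MamBo43 it gave 4.49 (edgeR adjusted p = 0.000975). Within MamBo43 the value was 1.29 (edgeR adjusted p = 0.0591), and without the interrupted culture it was 0.92 (edgeR adjusted p = 0.186). Of the exon bases of Timp3, 21.28% overlap Syn3 on the opposite strand, so its level may hold reads of Syn3.

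The comparisons within and between lines, each fitted over all tested genes, sort the 10 genes as the plot of fitted changes shows. In untreated MamBo43 against untreated MamBo89, the study's contrast of HER2 labile and HER2 stable cells, 7 of the 10 genes were called higher and 0 lower, and 9.29% of all 13782 tested genes were called higher and 6.19% lower. The untreated MamBo43 group is 1 library with no spread of its own, so these tests, and those of MamBo43 TRT against it, assume that it varies like the other groups. The 7 were Mmp3, Mmp10, Mmp11, Mmp13, Mmp14, Timp2 and Timp3. The remaining values were 1.40 for Mmp15 (edgeR adjusted p = 0.114), -1.72 for Mmp2 (edgeR adjusted p = 0.376) and -3.85 for Timp1 (edgeR adjusted p = 0.128). Mmp15 was close to the threshold and was called under several alternatives, such as 1.70 against all 4 MamBo89 libraries (edgeR adjusted p = 0.0231). Timp1 was -0.44 without AG3 (edgeR adjusted p = 0.685) and -4.78 without the other untreated MamBo89 library (edgeR adjusted p = 0.00143). For Mmp2 the direction depended on the MamBo89 library, since the value was -2.58 without AG3 (edgeR adjusted p = 0.00185) and 1.48 without the other untreated library (edgeR adjusted p = 0.0187).

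In MamBo43 TRT against untreated MamBo43, 5 of the 10 genes were called higher and 2 lower, against 13.2% and 15.3% of all tested genes. The 5 were Mmp2, Mmp11, Timp1, Timp2 and Timp3, and the 2 were Mmp10 and Mmp15. This comparison and the previous one share the single untreated MamBo43 library, so that library enters both with opposite sign. In MamBo43 TRT against MamBo38, both without HER2, Timp3 and Mmp15 were called higher and Mmp14 and Timp1 lower, and 9.9% of the 12545 tested genes were called higher and 11.7% lower. Mmp2 had a log2 fold change of -0.15 there (SE 0.20, edgeR adjusted p = 0.576), and Mmp11 one of -0.82 (SE 0.57, edgeR adjusted p = 0.275).

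**Figure D2:**
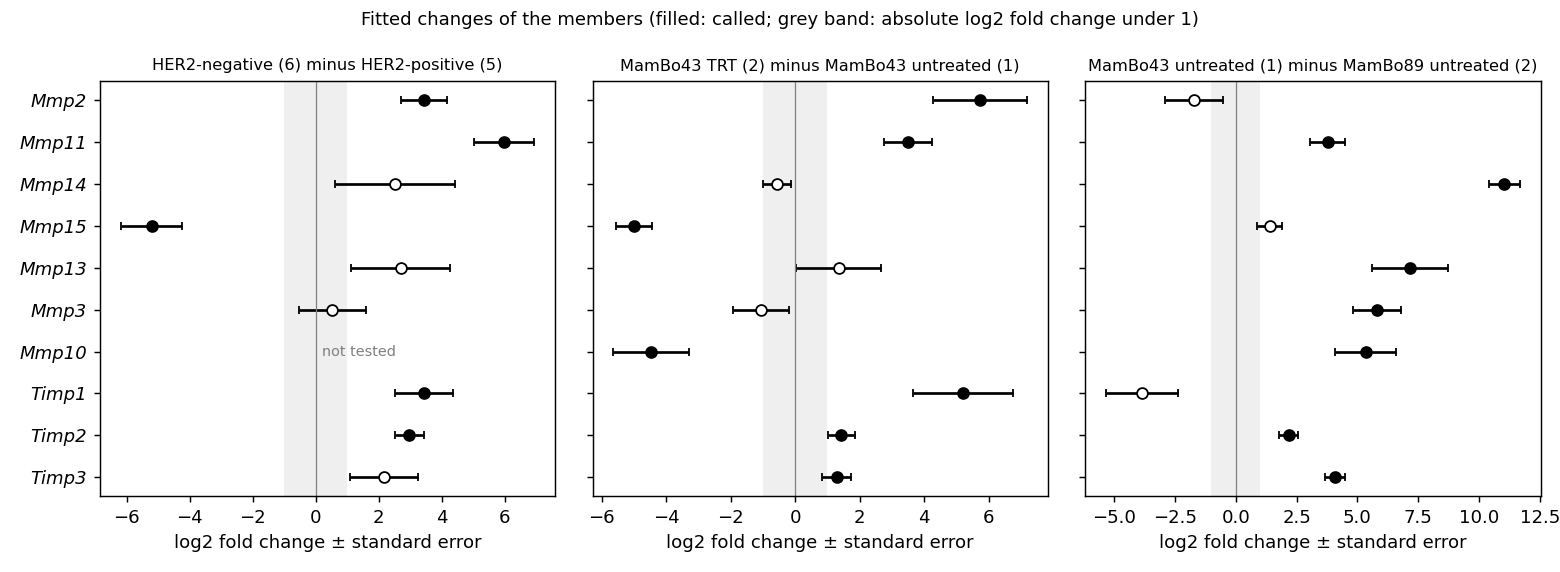
Log2 fold change with its standard error for each gene in 3 comparisons, with the number of libraries of each group in the panel titles; filled points were called, and the grey band marks an absolute log2 fold change under 1. Mmp2, Mmp11, Timp1 and Timp2 were called higher in both the left and the middle panel and Mmp15 lower in both, while Mmp14, Mmp13, Mmp3, Mmp10 and Timp3 were called higher in the right panel.

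Trastuzumab on cells that did not change HER2 status gave no call among these genes. In MamBo89, 7 of the 10 genes were tested, and edgeR called 0 of them and 0.0% of the 12046 tested genes. The 1 gene with an unadjusted p under 0.05 was Mmp15, at 47.9 CPM in treated and 70.9 CPM in untreated cells (log2 fold change -0.58, edgeR adjusted p = 0.944). Over all genes, 186 had an unadjusted p under 0.05, and DESeq2 called 9. In MamBo38, 9 of the 10 genes were tested and 0 were called, as were 0.0% of the 11861 tested genes, with 503 at an unadjusted p under 0.05, none of them among the 9, and 5 called by DESeq2. The counts of 0 depended on single libraries. They were no longer 0 without the untreated MamBo89 library other than AG3, which left AG3 as the only untreated one. The same held without the untreated MamBo38 library whose name carries the same code as the treated ones. The untreated MamBo38 library that was left carries the other code, so treatment and code cannot be told apart there. In both cases the single untreated library was assumed to vary like the treated pair, so these refits decide little.

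The effect of trastuzumab in MamBo43 was compared with that in the other lines by an interaction term. Against MamBo89, 6 of the 10 genes were called, as were 22.2% of all tested genes. The difference was largest for Timp1, at 8.13 (SE 1.89, edgeR adjusted p = 0.0269), and it was -4.42 for Mmp15 (SE 0.70, edgeR adjusted p = 0.00816). Against MamBo38, 4 of the 10 genes were called, as were 19.6% of all tested genes, with 5.38 for Mmp2 (SE 1.59, edgeR adjusted p = 0.0579). All these differences rest on the 1 untreated MamBo43 library. The size of the Timp1 difference to MamBo89 also rests on AG3. Timp1 had 16.3 CPM in AG3, 0.830 CPM in the other untreated MamBo89 library, and 1.11 and 1.16 CPM under trastuzumab.

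HER2 status and tumor of origin could be parted only in part. With tumor B libraries alone, 6 against 1, the log2 fold change was 5.80 for Mmp2, 4.07 for Mmp11, 6.16 for Timp1 and 1.60 for Timp2. It was -6.38 for Mmp15. Mmp10 was also lower, with 6.92 CPM in untreated MamBo43 and at most 2.68 CPM in the HER2-negative libraries. In the same fit Mmp14 stood at 0.17, Mmp13 at 0.40 and Timp3 at 0.08. The 1 HER2-positive library has no spread of its own, so calls of this fit are not given here. The names of 3 MamBo38 libraries carry one number and those of the other 8 libraries another. With these 8 alone, 3 against 5, 4 genes were called higher and 1 lower, as with all 11 libraries. In that fit 3630 of 12713 genes were called either way. The values were 3.29 for Mmp2, 5.15 for Mmp11, 3.04 for Timp1, 2.82 for Timp2 and -4.30 for Mmp15 (edgeR adjusted p = 0.00633 to 0.0721).

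Levels of different genes were set beside each other as CPM per kb of exon. The most abundant of the 10 genes was an inhibitor in all 11 libraries. It was Timp2 in the 4 MamBo38 libraries and in both trastuzumab-treated MamBo89 libraries, and Timp3 in the 3 MamBo43 libraries and both untreated MamBo89 libraries. The lead was wide in MamBo43, where Timp3 exceeded the next gene 3.35 to 5.56-fold. It was narrow in MamBo89, where the lead was as small as 1.02-fold. In that library, MamBo89 after 60 days of trastuzumab, Timp2 had 25.7 and Mmp2 had 25.2 CPM per kb.

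The summed level of the 7 proteases was 330 ± 73.5 CPM per kb (SD, n = 4) in MamBo38, 197 and 396 in the MamBo43 TRT libraries, 163 in untreated MamBo43 and 28.4 ± 9.31 (SD, n = 4) in MamBo89. All HER2-negative libraries were above all HER2-positive ones. The makeup of the sum differed between lines. In MamBo38, Mmp2 made up 45.8 ± 3.28% (SD, n = 4), with Mmp14 at 23.1 to 31.6% and Mmp11 at 8.44 to 25.2%. In untreated MamBo43, Mmp14 made up 37.3%, Mmp15 21.4%, Mmp3 19.3%, Mmp13 15.9% and Mmp2 1.56%. In MamBo89, Mmp15 and Mmp2 made up most of the sum, with Mmp15 at 88.4% in AG3 and 24.7 to 43.1% in the other libraries.

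The summed level of the 3 inhibitors was 623 ± 35.6 CPM per kb (SD, n = 4) in MamBo38 and 630 in untreated MamBo43, and it was 1823 and 1340 in the MamBo43 TRT libraries. In MamBo89 it was 56.7 ± 11.3 (SD, n = 4). Untreated MamBo43 and MamBo38 thus had inhibitor sums of about the same size, but Timp3 made up 83.0% in untreated MamBo43 and 30.0 to 42.5% in MamBo38. The inhibitor sum was 1.57 to 2.85 times the protease sum in MamBo38, 9.27 and 3.38 times in MamBo43 TRT, 3.87 times in untreated MamBo43 and 1.13 to 4.11 times in MamBo89. The ranges of this quotient overlapped between HER2-negative and HER2-positive libraries.

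**Figure D3:**
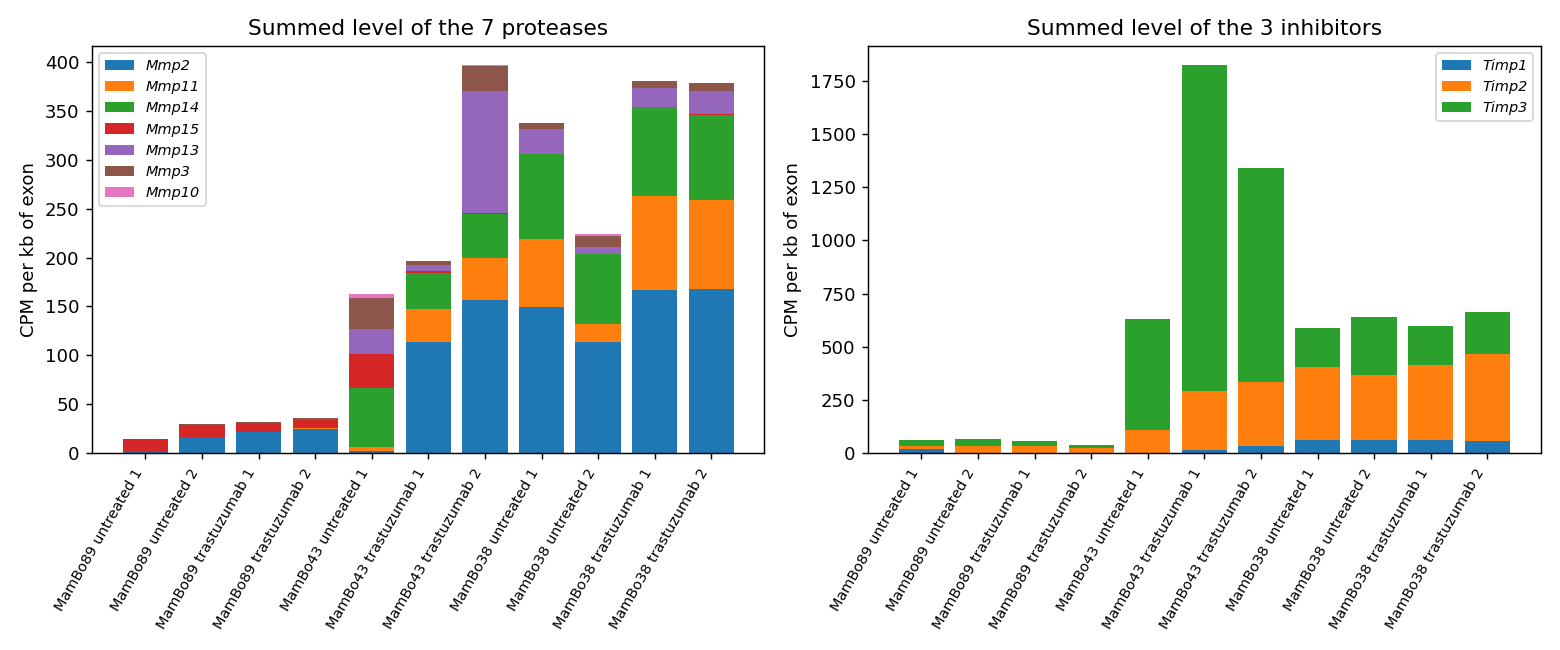
Summed level of the 7 proteases (left) and the 3 inhibitors (right) in each library, as stacked bars in CPM per kb of exon; the scales of the panels differ, and trastuzumab 1 is the interrupted and trastuzumab 2 the 60-day schedule. The protease sum lies between 15 and 36.1 in MamBo89 and between 163 and 396 in MamBo43 and MamBo38, and Timp3 fills most of the inhibitor sum in MamBo43.

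Each protease was then set against each inhibitor, as the log2 ratio of their levels per kb with 0.5 CPM added to each. These 21 pairs are described without a test, since a ratio inherits the changes of both genes. In 10 of the 11 libraries no protease stood above Timp2 or Timp3, and the exception was Mmp2 over Timp3 in MamBo89 after 60 days of trastuzumab, at 0.88. Timp1 was the inhibitor that proteases exceeded. In untreated MamBo43, all 7 proteases stood above Timp1, from 1.13 for Mmp2 to 5.63 for Mmp14, whereas in the other libraries between 0 and 4 of the 21 pairs had the protease above the inhibitor.

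Mmp14 and Timp2, whose products join in the activation of the Mmp2 proenzyme, were closest in untreated MamBo43, at -0.81. The ratio was -2.06 on average in MamBo38, -2.81 in MamBo43 TRT and -8.04 in MamBo89, where it rests on Mmp14 at or near 0 counts. Mmp2 itself stood at -1.24 to Timp2 in MamBo38, -1.11 in MamBo43 TRT, -5.31 in untreated MamBo43 and -1.35 in MamBo89. Among the lines, untreated MamBo43 thus had the highest Mmp14 and the lowest Mmp2 relative to Timp2. Relative to Timp3, Mmp14 stood at -1.31 in MamBo38 and -4.92 in MamBo43 TRT.

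By HER2 status, 1 of the 21 ratios lay higher in all HER2-negative than in all HER2-positive libraries, Mmp11 to Timp2, with a difference of 2.94. For the ratio of any gene to Timp2, 1.08% of 12363 genes did so, against 0.267% for Timp1 and 0.283% for Timp3, to which no protease had such a ratio. The 5 ratios that lay lower in all HER2-negative libraries were Mmp15 to each inhibitor and Mmp10 to Timp2 and Timp3, with differences of -3.17 to -9.57. Outside untreated MamBo43 and an untreated MamBo38 library, Mmp10 had at most 0.6 CPM, close to the 0.5 CPM added. Its ratios there mostly mirror the inhibitor. The share of genes with a lower ratio was 42.9% for Timp1, 82.2% for Timp2 and 10.5% for Timp3, and the ratio inherits the level of the inhibitor. The remaining 15 ratios overlapped. Without untreated MamBo43, where MamBo89 alone was HER2-positive, 5 ratios lay higher and 5 lower.

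**Figure D4:**
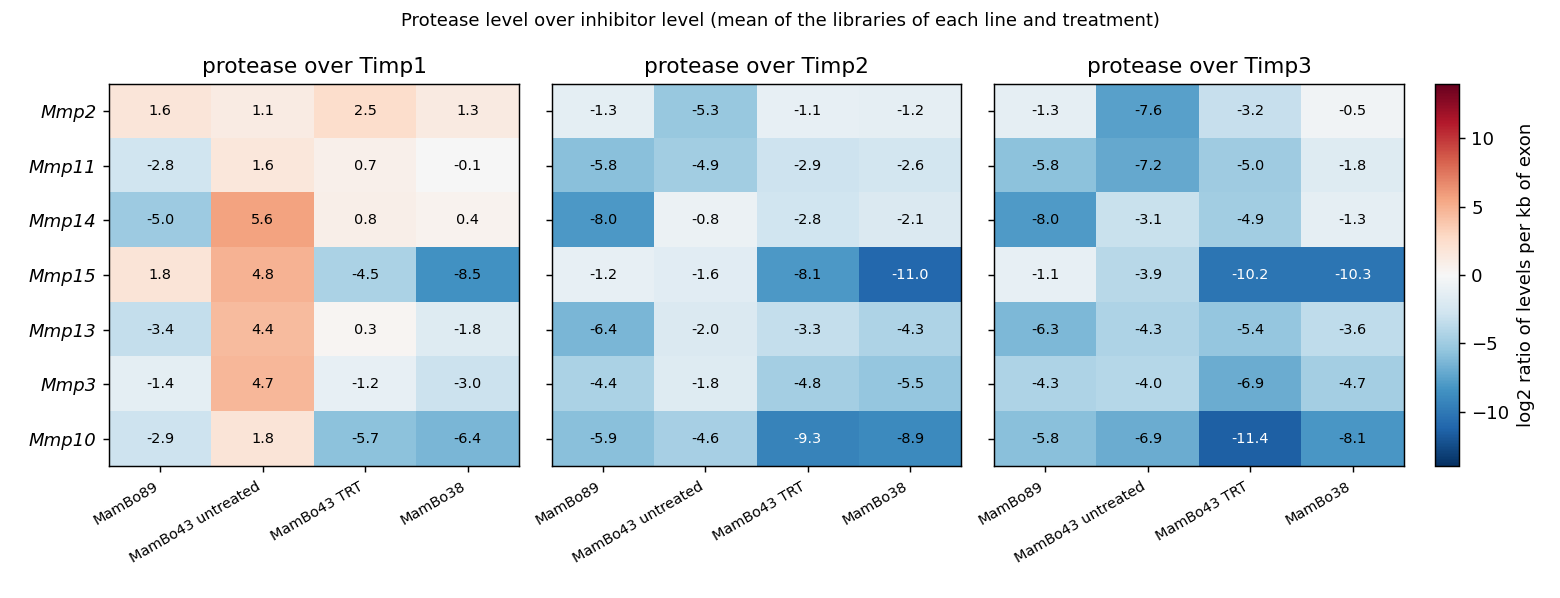
Log2 ratio of each protease to each inhibitor, from levels per kb of exon, as the mean over the libraries of MamBo89 (4), untreated MamBo43 (1), MamBo43 TRT (2) and MamBo38 (4); red marks a protease above the inhibitor and blue one below it. All 7 proteases exceed Timp1 in untreated MamBo43, and no mean ratio to Timp2 or Timp3 is above 0.

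For 8 of the 10 genes, the gene with the most similar pattern is given, as measured by the root mean square difference of mean-centred log2(CPM + 1) over the 11 libraries. For Timp2 it was Aebp1 (0.157), and for Mmp15 it was Mfap3l (0.278). For Timp1 it was Abcb1b (0.445), for Timp3 the growth factor gene Bmp4 (0.54), for Mmp11 Kcnab2 (0.626), for Mmp3 Acvrl1 (0.679), for Mmp14 Arhgdib (0.704) and for Mmp13 Creb3l1 (0.998). The next most similar to Mmp14 was Prrx1, a mesenchymal transcription factor (0.958). The points share lines and libraries, and these values are descriptions.

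Of the other 16 Mmp and Timp genes, 5 were tested by HER2 status, 3 were called higher and 1 lower (15.8% and 17.0% over all tested genes). Mmp19 had 79.5 to 109 CPM in HER2-negative and 0.117 to 3.85 CPM in HER2-positive libraries (log2 fold change 6.35, edgeR adjusted p = 5.17e-05). Mmp28, or epilysin, had 22.9 to 70.6 CPM and 0.679 to 5.66 CPM (3.59, edgeR adjusted p = 0.000146). Mmp9, or gelatinase B, had 0.932 to 7.46 CPM and at most 0.433 CPM (5.60, edgeR adjusted p = 0.000999). These 3 genes did not overlap between the groups, and 17.5% of all tested genes lay higher in every HER2-negative library. Mmp9, near 0 in HER2-positive libraries, entered the test through the HER2-negative ones. Mmp17 was called lower with overlapping groups (-1.77, edgeR adjusted p = 0.0307), and Mmp16 stood at -0.14 (edgeR adjusted p = 0.847).

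Genes that act before or beside the metalloproteinases were read from fixed lists in the same comparison. Among enzymes that can activate proMMPs, 14 of 18 were tested, 7 were called higher and 5 lower (15.8% and 17.0% over all tested genes). The median of the list was 0.81, against -0.04 over all tested genes. The 4 with the largest rise among those that did not overlap were the serine protease Htra1 (4.94, edgeR adjusted p = 3.5e-07), the plasminogen activator Plau (4.29, edgeR adjusted p = 0.000625) and the cathepsins Ctsl (4.05, edgeR adjusted p = 1.35e-05) and Ctsb (2.13, edgeR adjusted p = 0.000313). Those that fell most were the convertase Pcsk5 (-7.23, edgeR adjusted p = 0.00029) and the membrane serine proteases Prss8 (-5.45, edgeR adjusted p = 0.00427), Hpn (-4.25, edgeR adjusted p = 0.0324) and St14 (-4.19, edgeR adjusted p = 0.0444).

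Among other protease inhibitors and the clearance receptor, 11 of 16 were tested, 3 were called higher and 5 lower (15.8% and 17.0% over all tested genes), with a median of -0.45. Serpinf1 (8.23, edgeR adjusted p = 0.0011) and Lrp1, the endocytic receptor that takes up protease and inhibitor complexes (3.57, edgeR adjusted p = 0.00345), were higher. Serpinb5, or maspin (-4.49, edgeR adjusted p = 0.013), and the inhibitors of membrane serine proteases Spint2 (-3.64, edgeR adjusted p = 0.0763) and Spint1 (-3.28, edgeR adjusted p = 0.0955) were lower. Spint1 and Spint2 are known partners of St14 and Hpn, and the 4 genes moved in the same direction here. Of the inducers and surface partners, 14 of 15 were tested, 3 were called higher and 6 lower (15.8% and 17.0% over all tested genes), with a median of -0.60. The collagen receptors of the Ddr family went apart, with Ddr2 higher (7.91, edgeR adjusted p = 0.000298) and Ddr1 lower (-2.20, edgeR adjusted p = 1.9e-06). Cav1 (5.05, edgeR adjusted p = 0.0246) and Pdgfrb (4.02, edgeR adjusted p = 0.0452) were also higher. Itgb3 (-4.68, edgeR adjusted p = 3.5e-07), Tspan12 (-5.23, edgeR adjusted p = 0.00514) and Cd9 (-1.80, edgeR adjusted p = 0.000636) were lower.

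Of 17 transcription factors known to act on Mmp genes, 17 were tested, 3 were called higher and 5 lower, with a median of -0.51. The share called higher was near that over all tested genes, 15.8%, and 17.0% of those were called lower. The AP-1 subunit Fosl1 had 61.8 to 473 CPM in HER2-negative and 1.05 to 6.40 CPM in HER2-positive libraries (log2 fold change 6.41, SE 0.76, edgeR adjusted p = 5.74e-05). Untreated MamBo43, in which Mmp13, Mmp3 and Mmp10 were present, had 3.22 CPM of Fosl1, within the MamBo89 range. The Pea3 family members Etv4 (-1.46, edgeR adjusted p = 0.000154) and Etv5 (-1.19, edgeR adjusted p = 0.000319) were lower. In untreated MamBo43 against untreated MamBo89, Etv1 and Fos were called higher and Batf3 lower among the 17.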

How the data were processed

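Libraries of the 11 cultures were prepared with an unstranded TruSeq kit and read over 75 nucleotides. The authors aligned reads with STAR 2.5 and deposited expected counts from RSEM 1.3.0, all whole numbers, in mm10 per the submitters' processing notes. Genes were filtered with edgeR 4.0.16 in R 4.3.3 (filterByExpr, minimum count 10, minimum total 15), scaled by TMM and tested with glmQLFit and glmQLFTest, with all tested genes in the adjustment. Comparisons with 1 library in a group used one fit of 6 groups. SE was derived from log2 fold change and F as their quotient |log2FC|/sqrt(F), with a prior count of 0.125. DESeq2 1.42.0, other filters, covariates, subsets and leaving out each library were alternatives. Fits were tested on simulated data. Exon lengths, overlaps and gene positions are those of GENCODE on GRCm38.

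The text names all 10 genes, the other tested Mmp genes, up to 4 called, non-overlapping genes per direction and fixed list, and genes with the most similar pattern, of which that for Mmp2 is not reported here. A few genes outside this rule were named after their values were seen, namely Mmp12, Etv1, Fos, Batf3 and single marker genes. Members and lists were chosen with earlier results of these data known. Libraries were assigned from the sample labels, which do not say whether cultures were independent, so p-values measure only the spread between these libraries. The lowest chi-square per degree of freedom between 13 pairs of libraries of a line was 8.18. Intervals of depth cover counting error only, since reads carry no molecular identifiers.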

Additional observations from a re-analysis of the deposited data

Results flagged for a closer look

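In 17 of 40 groups of 4 to 6 libraries, a library lay far from the others by Dixon's criterion, which chance meets in about 1 in 20 groups. Untreated MamBo43 was the highest of the HER2-positive libraries for 8 genes, with 56.5 CPM for Mmp3, 6.92 for Mmp10, 9.51 for Mmp11, 69.1 for Mmp13, 362 for Mmp14, 188 for Mmp15, 415 for Timp2 and 4258 for Timp3. The AG3 library of MamBo89 stood apart for Timp1 at 16.3 CPM, both among HER2-positive libraries and within MamBo89, and the other untreated MamBo89 library for Mmp14 at 0.323 CPM. The 60-day MamBo43 TRT library stood apart among HER2-negative libraries for Mmp3 at 47.2 CPM and Mmp13 at 333 CPM, and the interrupted MamBo43 TRT library for Mmp15 at 8.74 CPM. An untreated MamBo38 library stood apart for Mmp10 at 2.68 CPM, both among HER2-negative libraries and within MamBo38, and for Mmp15 at 1.06 CPM within MamBo38.

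The effect of trastuzumab differed between MamBo43 and MamBo89 by an interaction term (edgeR, adjusted over all genes) for 6 genes. The log2 differences were 3.26 for Mmp11 (adjusted p = 0.0682), 8.13 for Timp1 (0.0269), 1.99 for Timp3 (0.0465), 4.26 for Mmp2 (0.0918), -4.42 for Mmp15 (0.00816) and -5.37 for Mmp10 (0.0687). Between MamBo43 and MamBo38 they were 2.42 for Mmp11 (0.0874), 5.21 for Timp1 (0.0804), 5.38 for Mmp2 (0.0579) and -3.64 for Mmp15 (0.0613). All 10 rest on 1 untreated MamBo43 library, and the size of the Timp1 difference to MamBo89 also rests on AG3.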

How the results depend on the processing

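The cause of each change below was not tested unless the alternative itself shows it. Of 610 refits of single genes, 564 kept their direction and their side of the threshold. For HER2 status, the count of genes called lower was 0 with at least 10 counts in every library, which leaves 5 of the 10 genes, and 2 with tumor B libraries only. With counts summed per line and HER2 status, 2 sums against 2, it was 0 higher and 0 lower, and 4 of 13399 genes were called. Leaving out each library gave 4 to 8 higher, with 8 without untreated MamBo43, and 1 lower throughout. In MamBo43 TRT against MamBo38, 1 gene was lower in a fit of all 11 libraries, and leaving out each library gave 2 to 4 higher and 0 to 3 lower, with 4 and 0 without the interrupted culture and 1 lower without MamBo38 on the interrupted schedule. Within MamBo89, leaving out a library gave 0 to 2 higher and 0 to 1 lower, and within MamBo38 0 to 2 and 0 to 2. In untreated MamBo43 against untreated MamBo89, 1 gene was lower with no filter and with DESeq2, and leaving out a library gave 7 to 8 higher and 0 to 1 lower. Of the ratios, 4 were higher and 13 lower with tumor B only, and 1 to 5 higher and 5 to 6 lower with each library left out, with 5 higher without untreated MamBo43 and 2 without the interrupted MamBo43 culture or the 60-day MamBo89 culture.

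Directions turned as follows. Mmp3 by HER2 status was -1.61 with tumor of origin as a covariate, -1.64 with tumor B only, -0.40 with untreated libraries only, -0.41 with summed counts and -0.0005839 without the 60-day MamBo43 TRT library. In MamBo43 TRT against MamBo38, Mmp2 was 0.079 without the interrupted culture, and without the 60-day culture Mmp3 was -1.02 and Mmp13 -1.54. Mmp2 in untreated MamBo43 against untreated MamBo89 was 1.48 without the parental MamBo89 library, and Mmp13 within MamBo43 was -1.98 without the 60-day culture. The difference of the Mmp2 to Timp1 ratio was -0.21 with a pseudocount of 0.1, -0.088 without the interrupted culture and -1.30 without AG3, and that of Mmp13 to Timp1 was -0.19 without AG3. Mmp2 to Timp3 was -0.013 with the 8 libraries of the more frequent code and -0.11 without untreated MamBo43. With tumor B only, Mmp11 to Timp1 was -1.38, Mmp13 to Timp1 -5.52, Mmp13 to Timp2 -1.94, Mmp14 to Timp1 -5.07 and Mmp14 to Timp2 -1.50. No paired analysis was possible because the labels carry no replicate numbers, and a schedule shared between lines is a treatment. With the library code as a covariate, 5 genes were called higher and 1 lower by HER2 status. Few libraries per group limit these comparisons, and genes such as Mmp10 and Mmp14 in MamBo89 were at or near the floor of 3 counts.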
